A study of Mus musculus and Homo sapiens with 22 samples.

Results

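Apolipoproteins are the protein components of lipoproteins, and the 10 genes described here encode 9 of them (Apoa1, Apoa2, Apoa4, Apoa5, Apob, Apoc1, Apoc3, Apoe and Apom) and MTTP, the protein that loads lipid onto APOB. They were chosen by name, and the question asked was where PROX1, a homeobox transcription factor, was found around them. A CUT&RUN peak, a region where antibody-tethered nuclease released more DNA than the background model of the peak caller allows, was assigned to a gene when its summit lay in the gene body or within 20 kb of it. The genes are 10 of 21839 mouse protein-coding genes, and their human counterparts of the same symbols are 10 of 19676 human ones. CUT&RUN had been run on 22 samples in 6 groups. Nuclei labelled as hepatocyte nuclei were taken from homogenised livers of untreated wild-type C57BL/6J mice aged 2 to 3 months and incubated with a PROX1 antibody (5 samples) or IgG (5 samples). Primary mouse embryonic fibroblasts (MEFs) of wild-type C57BL/6N embryos at E13.5 carried rtTA and tetO-FLAG-mmProx1 lentivirus and received doxycycline at 2 µg/ml for 2 days, and were incubated with a FLAG antibody (3 samples) or IgG (3 samples). Hep3B, a human hepatocellular carcinoma line, carried pLIX-Puro-hsPROX1, was selected with puromycin and received the same doxycycline dose for 2 days, with FLAG antibody (3 samples) or IgG (3 samples). The IgG controls of both cell cultures thus carried the transgene and the drug too. The liver signal came from endogenous PROX1 and the other signals from an introduced, doxycycline-driven protein, so tissue, antibody and origin of the factor cannot be told apart when liver is compared with either culture. MEFs and Hep3B shared antibody, doxycycline dose and days of induction. They differed in species, cell type, vector, puromycin selection and the species of the introduced PROX1.

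Each antibody group was represented by 1 list of peaks called over its replicates: 50159 peaks in liver, 40531 in MEFs and 14369 in Hep3B. With 1 list a group there was no replicate error, so all values below are descriptions without a test, set beside the same value over all genes or all peaks. Peak strength is given as −log10 p of the summit, with a median of 12.2 for liver, 5.96 for MEF and 6.44 for Hep3B peaks. Because these values were not scaled between lists, each peak is also described by the share of peaks of its own list that were weaker. Whether the lists fit their labels was looked at through markers that had a summit no more than 1 kb from a transcription start site (TSS), which is occupancy and not expression. Of 6 hepatocyte markers, 6 had such a summit in liver and 0 in MEFs, and of the 5 found in human, 1 (CPS1) had one in Hep3B. Of 6 fibroblast markers, 1 had one in liver (Pdgfra), 6 in MEFs and 1 in Hep3B (COL1A1).

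Lipoproteins carry triglyceride and cholesterol through blood. The liver builds very-low-density lipoproteins around APOB with the help of MTTP and secretes APOA1 and APOA2 for high-density lipoproteins, while APOC proteins, APOA5 and APOE set how fast particles lose triglyceride and are taken up. Several of these genes sit next to each other, so that Apoa1, Apoc3, Apoa4 and Apoa5 form a cluster on mouse chromosome 9, and Apoe and Apoc1 are neighbours on chromosome 7. Hepatocytes are a main source of most of these proteins, whereas fibroblasts are not known as a source of APOB-containing particles.

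At 8 of the 10, liver had a promoter summit, meaning one no more than 1 kb from a TSS. The GRCm38 (mm10) sequence around the strongest such summit of each that left bases outside UTRs is shown, up to 80 bp to each side, 5′ to 3′ on the strand of the gene, since these are the promoter regions on which the comparison with MEFs turned. UTR bases were cut off, so a window that is shorter ends just before the first transcribed base. At Apoa4 and Mttp the summit itself lay past that base and is not in the sequence shown. Capitals mark matches on either strand to any of 11 short motifs that were searched, which are named with their shares further on.
Apoa1 (chr9:46228407-46228567, plus strand): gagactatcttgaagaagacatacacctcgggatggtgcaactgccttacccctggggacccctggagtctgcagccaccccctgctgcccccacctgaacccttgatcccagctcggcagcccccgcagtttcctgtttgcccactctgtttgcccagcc
Apoa2 (chr1:171224041-171224201, plus strand): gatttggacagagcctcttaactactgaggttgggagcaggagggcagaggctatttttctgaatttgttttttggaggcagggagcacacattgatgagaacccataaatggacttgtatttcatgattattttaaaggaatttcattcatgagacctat
Apoa4 (chr9:46240623-46240695, plus strand): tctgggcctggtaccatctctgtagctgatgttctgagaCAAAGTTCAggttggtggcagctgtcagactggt
Apoa5 (chr9:46268537-46268632, plus strand): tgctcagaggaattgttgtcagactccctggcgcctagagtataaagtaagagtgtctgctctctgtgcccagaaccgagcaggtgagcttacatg
Apob (chr12:7977534-7977647, plus strand): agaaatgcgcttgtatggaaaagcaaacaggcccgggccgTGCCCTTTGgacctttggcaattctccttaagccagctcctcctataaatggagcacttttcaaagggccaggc
Apoc3 (chr9:46235742-46235902, minus strand): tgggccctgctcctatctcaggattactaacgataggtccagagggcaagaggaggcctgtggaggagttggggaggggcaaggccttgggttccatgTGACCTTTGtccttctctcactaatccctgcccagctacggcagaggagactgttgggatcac
Apoe (chr7:19699209-19699369, minus strand): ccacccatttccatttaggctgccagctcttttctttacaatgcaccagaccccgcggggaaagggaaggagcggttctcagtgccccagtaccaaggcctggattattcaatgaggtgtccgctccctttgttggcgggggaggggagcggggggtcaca
Mttp (chr3:138131378-138131426, minus strand): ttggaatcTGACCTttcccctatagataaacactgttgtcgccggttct
Matches were present in the windows of Apoa4, Apob, Apoc3 and Mttp. The Apoa4 and Apob windows held CAAAGNNCA, a form of the direct repeat read by HNF4 and PPAR receptors, in Apob on the reverse strand. The Apoc3 window held that motif and the nuclear receptor half-site AGGTCA, overlapping, both on the reverse strand, and the Mttp window held AGGTCA on the reverse strand. None of the 11 motifs had a match in the other 4 windows.

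In liver, all 10 genes had at least 1 summit in the gene body or within 20 kb, beside 57.4% of all protein-coding genes. A summit within 1 kb of a TSS was present at 8 of 10, beside 26.6% of genes, and Apoc1 and Apom were without one. With the liver list cut to its 14369 strongest peaks, the size of the Hep3B list, 5 of 10 genes kept one, beside 4.98% of all genes. The genes shared 63 distinct peaks in liver, of which 27 lay in the windows of 2 or more of them. A gene of the set had a median of 11 liver peaks, and the median gene had 1. The median gene length was 3.07 kb for the 10 genes and 17.4 kb for all mouse genes, so their windows were not longer. Within their 6 separate windows, liver peaks were found at 16.1 per 100 kb, beside 1.84 per 100 kb over the genome.

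In MEFs the same windows held 17 peaks, or 4.34 per 100 kb beside 1.49 per 100 kb over the genome. All 10 genes again had a summit within 20 kb, but so did 75.5% of all genes, and the median was 2 peaks per gene both for the set and for all genes. Promoter summits were present at only 2 of 10 genes in MEFs, Apob and Mttp, beside 55.3% of all genes, and at 2 of 10 beside 33.9% with the 14369 strongest MEF peaks. In Hep3B, 6 of 10 genes had a summit within 20 kb, beside 62.5% of human genes, and 5 of 10 had a promoter summit, beside 44.4%. Counts of promoter summits at the 10 genes thus lay above the share of all genes in liver, below it in MEFs and near it in Hep3B. At equal list size the count itself was 5 both in liver and in Hep3B.

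**Figure D1:**
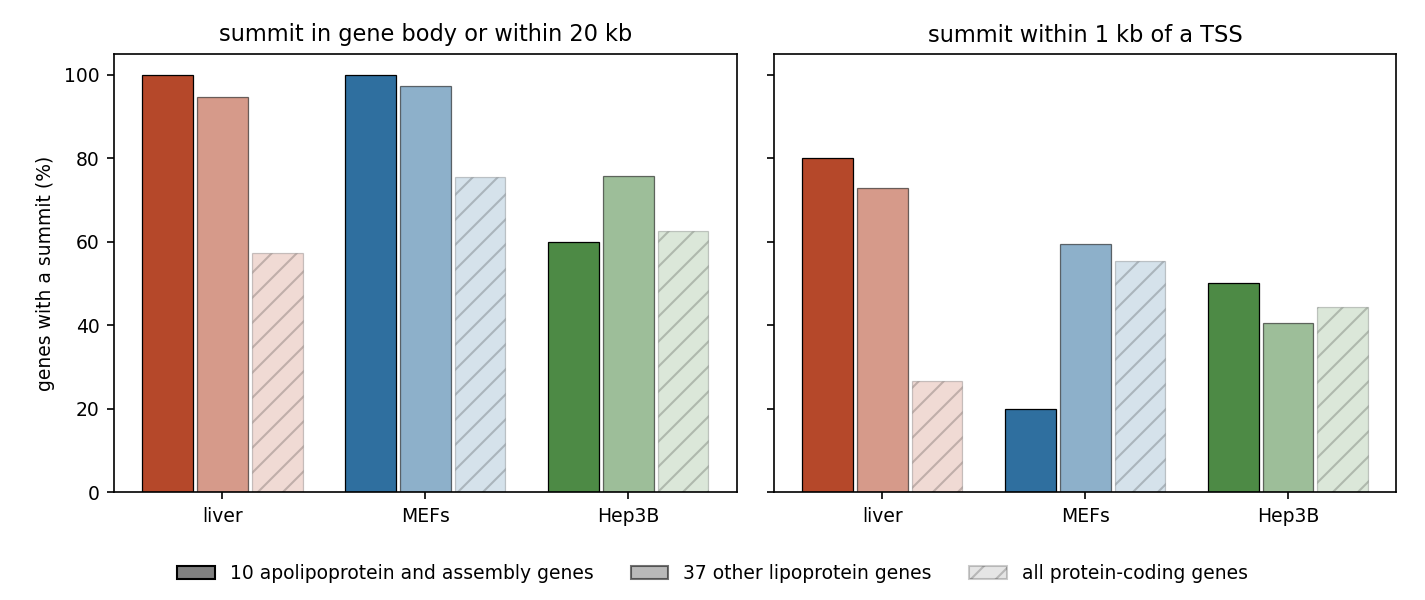
Share of genes (%) with a PROX1 summit in the gene body or within 20 kb (left) and within 1 kb of a TSS (right), for the 10 apolipoprotein and assembly genes, 37 other lipoprotein genes and all protein-coding genes in each list. On the right, the bars of the 10 genes stand at 8 of 10 in liver against 26.6% of all genes, and at 2 of 10 in MEFs against 55.3%.

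Peaks at the set were not all strong. In liver their median −log10 p was 12.7, and the median peak was stronger than 55.4% of the list, close to the middle. Of the 63 peaks, 33 were in the stronger 50% of the list, 14 in the top 10% and 4 in the top 1%. They were wider than the list, with a median of 735 bp beside 504 bp, and 7 of 63 (11.1%) spanned 2 kb or more, beside 2.98% of all liver peaks. By position, 31 summits were intergenic, 23 in introns, 5 in 5′ UTRs, 2 in coding exons and 2 in other exons. The liver list as a whole was largely away from promoters, with 14.5% of summits within 1 kb of a protein-coding TSS, whereas 44.4% of the 63 were that close to one. The 63 were selected for lying in or near genes and the list was not, so a higher share was built in. Within 1 kb of the TSS of their nearest gene, 13 summits were at a gene of the set and 15 at a neighbour. Median GC content of the 300 bp around the summit was 49% for the set and 46.7% for the list.

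The cluster of Apoa1, Apoc3, Apoa4 and Apoa5 (chr9:46228580-46271919, 43.3 kb) carried 18 liver peaks, whose median was stronger than 79.7% of the list. This was the highest median among the 6 loci. APOA1 is the main protein of high-density lipoproteins, and 93 bp upstream of the Apoa1 TSS lay a summit with a −log10 p of 18.2 (rank 4798, stronger than 90.4% of the list). A stronger and broader peak of 4670 bp had its summit 4381 bp upstream of Apoa1, at a −log10 p of 25.8 and rank 144. Further upstream, in an intron of the kinase gene Sik3, a peak of 4117 bp reached 25.2 and rank 207. All 3 lay on the Apoa1 side of the cluster, and the summit in Sik3 was 12822 bp from the Apoa1 TSS.

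Apoc3 encodes an inhibitor of triglyceride clearance and had the strongest promoter summit of the set, 186 bp upstream of its TSS, at a −log10 p of 24.9 (rank 249, stronger than 99.5% of the list). Its sequence is the Apoc3 window shown above with overlapping AGGTCA and CAAAGNNCA letters. Apoa4, a protein of chylomicrons and high-density lipoproteins, had a summit 7 bp past its TSS at 16.1, stronger than 81.1% of the list. The promoter summit of Apoa5, whose liver-made protein promotes triglyceride hydrolysis, lay 16 bp upstream of the TSS and was weaker, at 14.3 and 69.4%. Between Apoa4 and Apoa5, 3 intergenic summits 7019, 8645 and 11308 bp upstream of Apoa5 all exceeded it, at −log10 p of 22.9, 22.1 and 18.8. All 4 genes therefore had a promoter summit, and the window of each also held a stronger summit between genes. At Apoc3 the gap was small, with 25.8 for the summit upstream of Apoa1 beside 24.9.

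MEFs had 4 peaks across the same cluster, and 0 of them lay within 1 kb of a TSS of the 4 genes. The summit nearest to one of their TSSs was in a coding exon of Apoa1, 1478 bp past its TSS, at a −log10 p of 4.52, stronger than only 10.2% of the MEF list. A peak 6309 bp past the Apoa4 TSS reached 6.65, and its summit was 79 bp from that of a liver peak. The other 2 were at the promoters of the neighbouring genes Zpr1 (summit 19 bp upstream of its TSS, 6.95) and Bud13 (42 bp past its TSS, 5.63). At both of these neighbours liver had peaks too, at 15.6 and 7.10, the latter stronger than only 0.447% of its list. All 4 MEF peaks overlapped a liver peak, whereas 14 of the 18 liver peaks did not overlap a MEF peak.

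**Figure D2:**
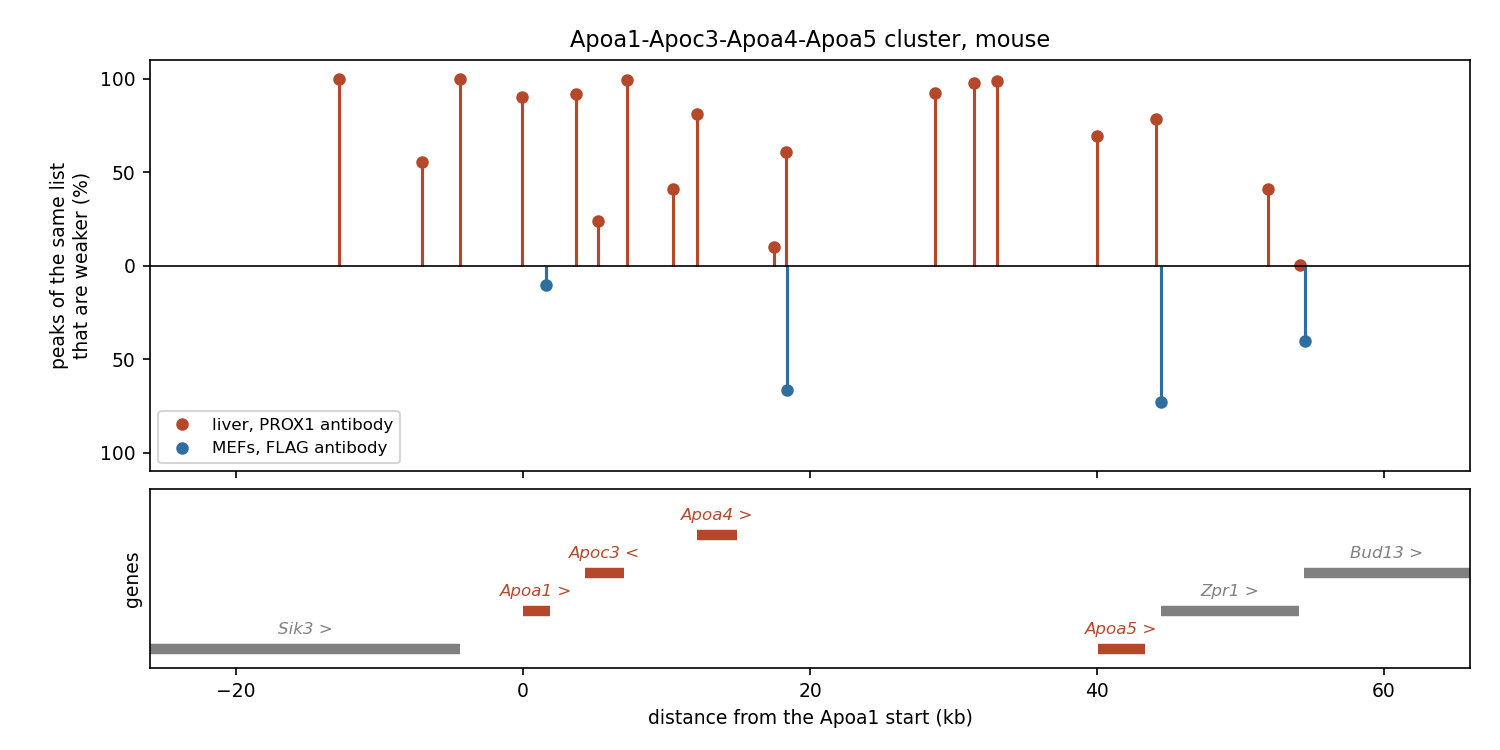
Summits of PROX1 peaks across the mouse Apoa1-Apoc3-Apoa4-Apoa5 cluster, by distance from the Apoa1 start (kb), with the share of weaker peaks in the same list (%) upward for liver and downward for MEFs, and genes drawn below with arrowheads for strand. The 18 liver summits include promoter summits of all 4 genes, and the 4 MEF summits lie elsewhere, with 2 at the starts of Zpr1 and Bud13.

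Apoe and Apoc1 (chr7:19689481-19699188) shared a locus with 18 liver peaks, with a median stronger than 38.0% of the list, which was the lowest among the 6 loci. Apoe encodes the ligand through which remnants are taken up by receptors of the LDL receptor family. Its promoter had 2 weak summits, 101 bp upstream of a TSS at a −log10 p of 10.9 (35.4% weaker) and 32 bp past another at 8.48 (6.35% weaker). The strong peaks lay beside the genes. The widest of the 63 peaks, 5298 bp, ran across the start of Apoc1 and the interval between Apoc1 and Apoe, with its summit 1817 bp upstream of Apoc1 at 19.4 and rank 3148. Thus the Apoc1 TSS lay inside a peak, although no summit was within 1 kb of it. By the same reading, 9 of 10 genes had a TSS inside a liver peak, all but Apom, beside 22.0% of all genes. In MEFs it was 1 of 10 (Mttp) beside 52.3%, and in Hep3B 5 of 10 beside 41.3%.

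A further summit 1920 bp upstream of Apoe reached 18.9 and was stronger than 92.4% of the liver list. MEFs had a peak at the same place, with summits 92 bp apart, but at 5.76 it was stronger than only 44.3% of its list. The other MEF peak of the locus was one of the strongest of all MEF peaks, at 11.2 and rank 44, and sat 292 bp upstream of Tomm40, which encodes the channel for protein import into mitochondria. Its liver counterpart, 131 bp away, reached 11.3 and exceeded only 40.6% of the liver list. So the order within each list was turned around across this locus, with the region upstream of Tomm40 ranking above that upstream of Apoe in MEFs and below it in liver. In Hep3B the strongest of 6 peaks at the human locus was also at TOMM40, 26 bp past its TSS, at 9.005 and rank 273. Hep3B had a promoter summit at APOE, 188 bp past its TSS, at 7.86 (rank 2435, stronger than 83.0%), and another at APOC1, 347 bp past a TSS, at 5.41 (17.4%).

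**Figure D3:**
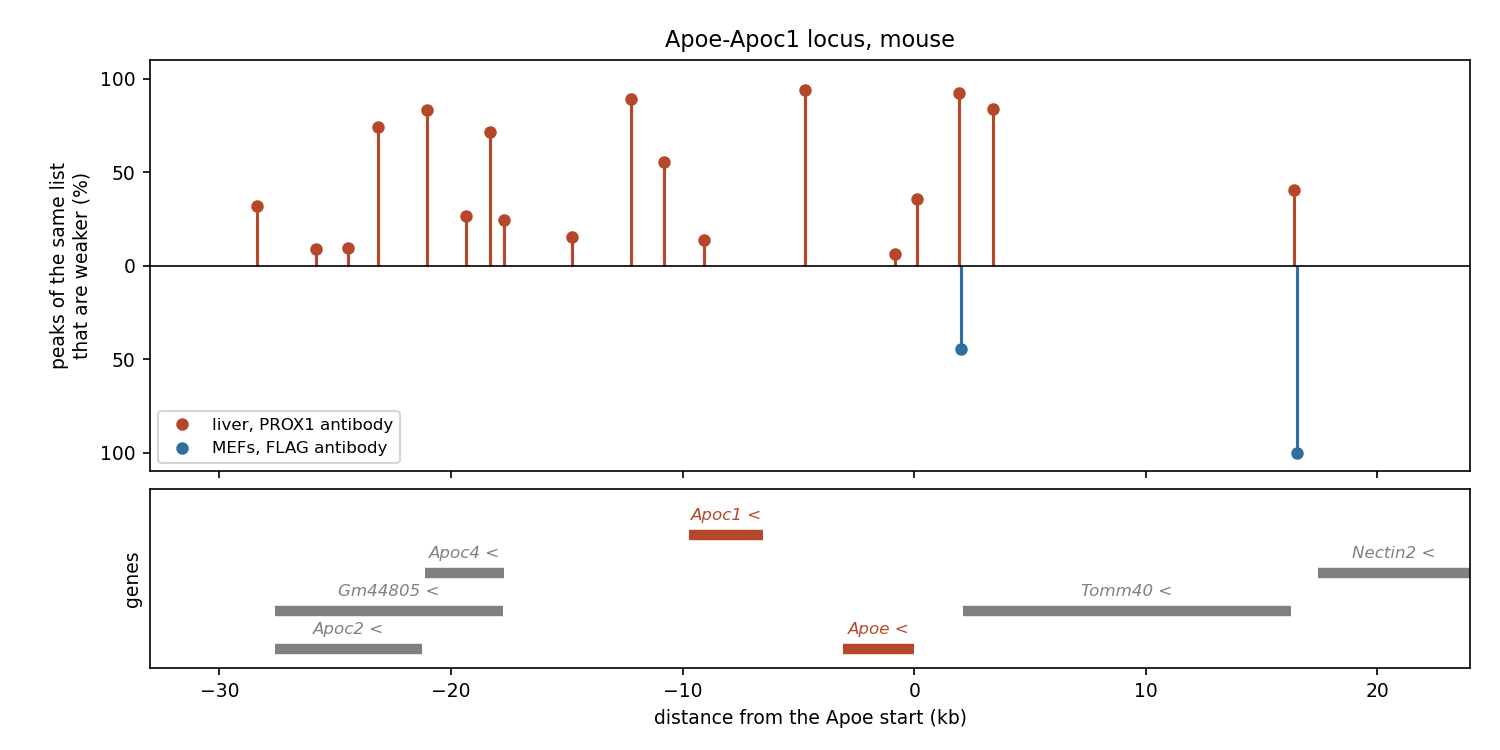
Summits of PROX1 peaks across the mouse Apoe-Apoc1 locus, by distance from the Apoe start (kb), with the share of weaker peaks in the same list (%) upward for liver and downward for MEFs, and genes below. The 18 liver summits spread over Apoc2, Apoc4, Apoc1 and Apoe, and the strongest of the 2 MEF summits stands at the Tomm40 start.

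Apoa2, on chromosome 1 (chr1:171225054-171226379), encodes the second protein of high-density lipoproteins and is only 1.33 kb long. Its window held 12 liver peaks. Among its 3 promoter summits the strongest, shown above, lay 933 bp upstream of a TSS at a −log10 p of 18.0 (89.8% weaker), and those 148 bp upstream and 884 bp past a TSS reached 13.8 and 10.7. A peak of 3583 bp with its summit 3398 bp past an Apoa2 TSS was stronger, at 20.7 and rank 1922. The strongest of all 63 peaks was also in this window, in an intron of Fcer1g, a subunit of the immunoglobulin Fc receptor complex, at 27.2 and rank 62. Its summit was 1709 bp from the TSS of Fcer1g, so its place in the Apoa2 window does not tell which gene it belongs to. The window also took in the start of Nr1i3, which encodes the nuclear receptor CAR, where a summit 924 bp upstream reached 18.5. MEFs had 2 peaks in this window, 95 bp upstream and 1172 bp inside Tomm40l, and 0 nearest to Apoa2. In Hep3B, the human gene had a promoter summit 626 bp upstream of a TSS at 6.29 (44.7%), and the strongest of 5 peaks was again at TOMM40L, 114 bp upstream of its TSS, at 8.58 (92.1%).

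The genes of particle assembly, Apob and Mttp, had promoter summits in both mouse lists, with a difference in where they lay. Apob (chr12:7977648-8016835) encodes the structural protein of very-low-density lipoproteins. Its liver promoter summit 34 bp upstream of the TSS had a −log10 p of 10.4 and exceeded 29.1% of the list, and another 701 bp past the TSS had 10.4 and exceeded 28.3%. The strongest of 9 liver peaks, in an intron 6865 bp past the TSS, reached 14.5 and 70.9%. All 9 were nearest to Apob, unlike at the other loci except Mttp. MEFs had 4 peaks, all nearest to Apob too, and the strongest, at 7.84 (87.0% weaker), lay in the first part of the gene 943 bp past the TSS, 242 bp from a liver summit. Apob was the only gene of the set with a MEF promoter summit that was nearest to its own TSS. At the human APOB gene, Hep3B had 0 peaks, and the nearest summit was 220799 bp from its TSS.

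Mttp (chr3:138089854-138144968) had 5 liver peaks, all nearest to its own TSSs. At the outer of its 2 protein-coding TSSs a summit 74 bp inside reached only 10.1 (24.3% weaker), while at the internal TSS a summit 31 bp inside reached 15.6 (78.3%). The strongest, in an intron 2114 bp past the internal TSS, reached 18.2 (90.4%, rank 4823). The single MEF peak counted at the Mttp promoter reached 8.09 (89.7%). Its summit lay within the annotated gene body, 493 bp upstream of the outer protein-coding TSS of Mttp. That summit was also 20 bp inside Trmt10a, a tRNA methyltransferase gene that starts on the other strand. Human MTTP and TRMT10A also start on opposite strands, but do not overlap as the mouse genes do. The single Hep3B peak at MTTP, at 7.67 (80.02%), lay 164 bp upstream of MTTP and 100 bp inside TRMT10A. Mttp was the only one of the 10 genes with a promoter summit in all 3 lists, and in the MEF and Hep3B lists that summit was closer to the neighbour.

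Apom, which encodes a sphingolipid carrier of high-density lipoproteins, stood apart from the rest. In liver 1 peak was found in its window (chr17:35128997-35132050 with 20 kb on both sides), at 12.3, 6329 bp past the Apom TSS and nearest to the gene D17H6S53E. MEFs had 4 peaks, all nearest to other genes, of which the strongest, 3 bp upstream of Gpank1, reached 9.39 and rank 981. Apom was the only gene of the set without more liver than MEF peaks. The other 9 of 10 had more, beside 29.2% of all protein-coding genes. In Hep3B, a summit 138 bp past an APOM TSS reached 7.85 (82.8%), but it was 93 bp past that of BAG6, a chaperone gene.

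Across the mouse loci, 6 of 10 genes had a promoter summit in liver and none in MEFs (Apoa1, Apoa2, Apoa4, Apoa5, Apoc3 and Apoe), a pattern shown by 4.35% of all protein-coding genes. Among all genes with a liver promoter summit, 950 of 5814 (16.3%) lacked one in MEFs. For the apolipoprotein genes without a MEF promoter summit, the nearest MEF summit was 1478 bp from a TSS at Apoa1, 2012 bp at Apoe, 2445 bp at Apoa2, 2854 bp at Apom, 3967 bp at Apoa5, 5061 bp at Apoc3, 6309 bp at Apoa4 and 8540 bp at Apoc1. Of the 63 liver peaks, 11 (17.5%) overlapped a MEF peak by at least 1 bp, close to the 18.9% of the whole liver list. In the other direction, 11 of the 17 MEF peaks (64.7%) overlapped a liver peak, beside 21.4% of the MEF list. The windows were dense in liver peaks, and the part of that density in this overlap was not tested.

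**Figure D4:**
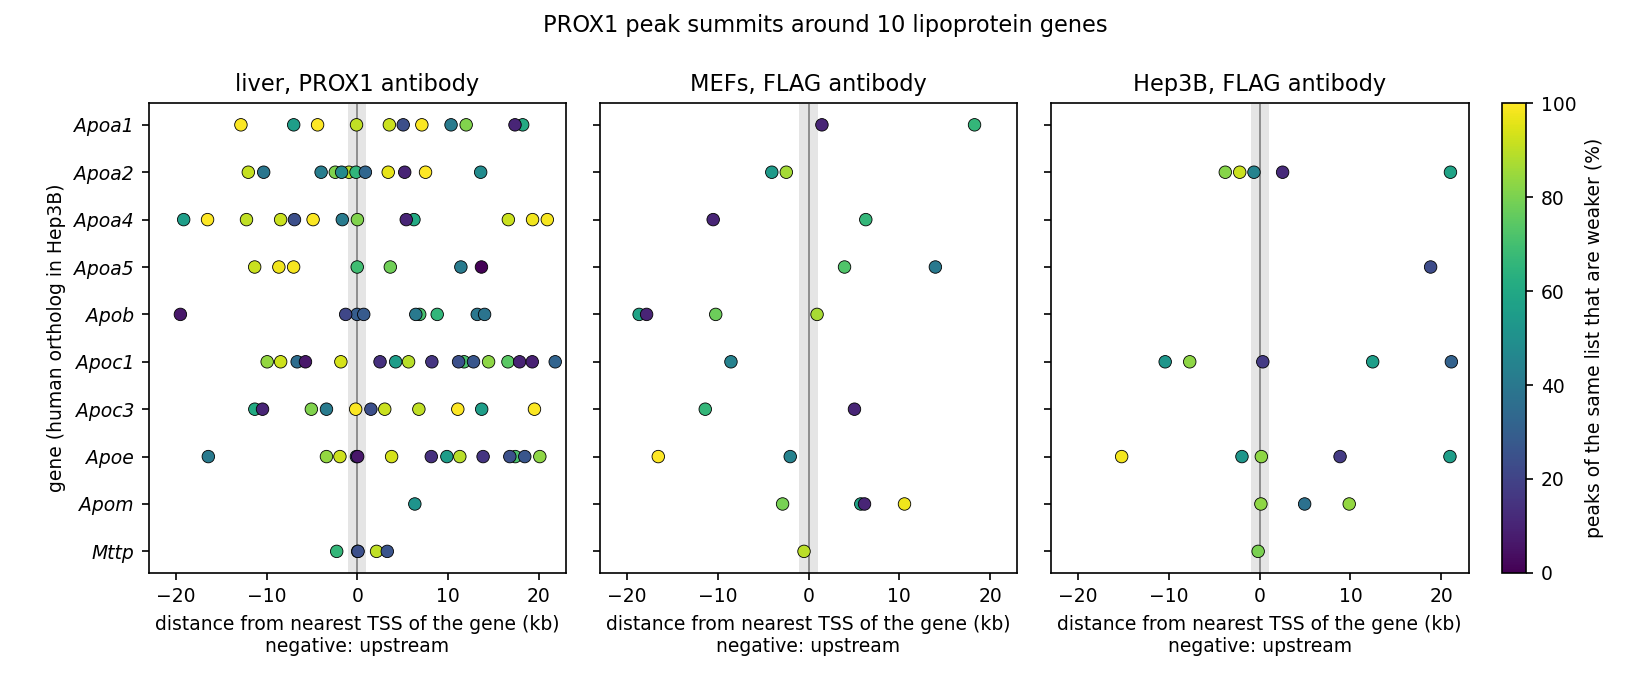
Distance of each summit from the nearest TSS of the gene (kb, negative upstream) for the 10 genes in the 3 lists, coloured by the share of weaker peaks in the same list (%), with the grey band marking 1 kb around the TSS. Apom has a single liver summit and Mttp 5, all other genes have 7 or more, MEF summits fall in the band at Apob and Mttp alone, and Hep3B has no summit at APOA1, APOA4, APOB and APOC3. Neighbouring genes share summits, so a summit can appear in several rows.

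The peaks differed between lists in which gene they were closest to. In liver, 37 of 63 summits (58.7%) were nearest to a TSS of the 10 genes, beside 6 of 17 (35.3%) in MEFs and 6 of 16 (37.5%) in Hep3B. Of the summits nearest to another gene, 15 of 26 lay within 1 kb of its TSS in liver, 9 of 11 in MEFs and 8 of 10 in Hep3B. These other genes were not alike between lists. In liver they included Apoc2 and Apoc4, apolipoprotein genes outside the 10, and in Hep3B APOC4, whereas no MEF summit was nearest to either. In liver the peaks nearest to the set were the stronger, with a median above 65.6% of the list, beside 47.6% for those nearest to a neighbour. In MEFs the medians were 62.2% and 72.6%, and in Hep3B 48.6% and 81%. The direction was thus opposite in the 2 lists of introduced PROX1, where the starts of neighbours such as Tomm40, Tomm40l, Trmt10a, Zpr1, Bag6 and Gpank1 carried many of the peaks. Of the liver peaks nearest to the set, 5 of 37 overlapped a MEF peak, as did 6 of the 26 nearest to neighbours.

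In Hep3B the set had 16 peaks, at 3.89 per 100 kb beside 0.465 per 100 kb over the genome. The genome value also covers stretches far from genes. Counted per gene, the median was 1 peak both for the set and for all human genes. The median of the 16 peaks was stronger than 56.9% of the list. Of the 16, which were selected near genes, 11 (68.8%) lay within 1 kb of a protein-coding TSS, beside 58.2% of the list. Promoter summits were present in both liver and Hep3B at 3 of 10 genes (Apoa2, Apoe and Mttp), in liver alone of the pair at 5 (Apoa1, Apoa4, Apoa5, Apob and Apoc3), and in Hep3B alone of the pair at 2 (Apoc1 and Apom). Over the 15747 protein-coding genes of the same symbol in mouse and human, these shares were 22.8%, 9.7% and 26.0%. With the 14369 strongest liver peaks, 23 liver peaks were left at the set, beside the 16 of Hep3B. The whole human APOA1-APOC3-APOA4-APOA5 cluster had 1 peak, at −log10 p 5.60 (23.03%), 56 bp upstream of BUD13 and 18828 bp from the APOA5 TSS. The same summit was the nearest to the other genes of the cluster, at 50261 bp from the APOA4 TSS, 56663 bp from that of APOC3 and 64543 bp from that of APOA1. Of the 6 loci, the cluster with the strongest median in liver thus had 1 peak in Hep3B, as did MTTP, and the APOB locus had 0.

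Motif letters within the 300 bp around summits were counted on both strands. Of the 63 liver peaks, 24 (38.1%) held AGGTCA, beside 31.9% of all liver peaks, and 9 (14.3%) held CAAAGNNCA, beside 17.3%. CCAAT, the NF-Y box, was in 34.9% beside 36.5%, TGTTTAC (FOXA) in 7.94% beside 8.16%, GGGCGG (SP and KLF factors) in 11.1% beside 10.99%, and GTTAAT (HNF1 half-site) in 6.35% beside 12.2%. The half-sites of the PROX1 palindrome, AAGACG and AAGGCG, were in 4 peaks (6.35% beside 4.10%) and 3 peaks (4.76% beside 5.91%). CAAGGTCA, an extended half-site that contains AGGTCA and is read by NR5A2 and ERR receptors, was in 3 (4.76% beside 4.17%). CAAAGTCCA, an HNF4 form of CAAAGNNCA, and ATCGAT, the core of ONECUT and CUX sites, were in 2 each (3.17%, beside 2.52% and 2.49%). Of these 11 motifs, AAGACG (above the list) and GTTAAT (below it) stood furthest from the list relative to its share, each on only 4 peaks. Over whole peaks, which were wider at the set than in the list, AAGGCG was in 22.2% beside 11.7% and CCAAT in 76.2% beside 55.0%. In Hep3B, AGGTCA was in 6 of 16 peaks (37.5%), beside 14.0% of the list, and CAAGGTCA in 3 of 16, beside 1.06%. All 3 peaks with CAAGGTCA and 5 of the 6 with AGGTCA were at the APOE-APOC1 locus, so they come from a single stretch of the genome. In MEFs, AGGTCA was in 2 of 17, beside 16.4%, and CCAAT in 9 of 17, beside 36.5%. The PROX1 half-site AAGGCG was in 0 of 16 Hep3B peaks, beside 15.8%, and in 1 of 17 MEF peaks, beside 9.21%. AAGACG was in 1 of 16 in Hep3B, beside 5.92%, and in 1 of 17 in MEFs, beside 3.99%. CAAAGNNCA was in 0 of 16 and 0 of 17, beside 5.99% of the Hep3B list and 6.74% of the MEF list.

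The wider lipoprotein pathway was described through 37 other genes. In liver 35 had a summit within 20 kb and 27 a promoter summit, in MEFs 36 and 22, and in Hep3B 28 and 15, to be read beside 57.4% and 26.6% of all genes in liver, 75.5% and 55.3% in MEFs, and 62.5% and 44.4% in Hep3B. By role, the promoter counts in liver, MEFs and Hep3B were 5, 2 and 1 for 6 further apolipoprotein genes. The 8 genes of assembly and secretion had 8, 7 and 6. Lipases and remodelling factors (10 genes) had 7, 4 and 2, receptors and their modulators (8 genes) 4, 7 and 5, and transporters (4 genes) 3, 2 and 0. The regulator Creb3l3 had a promoter summit in Hep3B alone. Apolipoprotein genes thus had fewer promoter summits in MEFs and Hep3B than in liver, while over all genes the share was lowest in liver.

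Promoter summits in all 3 lists were found at 9 of the 37: Apoo, Sar1b, Surf4, P4hb, Dgat1, Mia2, Sec23a, Lmf1 and Scarb1. This was near the share of 21.9% over genes of the same symbol in both species. Sar1b, Surf4 and Sec23a act in export from the endoplasmic reticulum, P4hb encodes the partner subunit of MTTP, and Scarb1 encodes the receptor for high-density lipoproteins. Scarb1 had 29 liver peaks, the best stronger than 99.1% of the list, and Sar1b had 14, the best stronger than 99.4%. Promoter summits in liver alone were found at 10, among them Apoc2, Apoc4, Apof, Tm6sf2, Lipc, Lcat, Abcg5 and Abcg8, beside 3.45% of such genes. Lipc, which encodes hepatic lipase, had 33 liver peaks beside 2 in MEFs and 1 in Hep3B. Abcg5 and Abcg8, partners in the biliary sterol transporter, had 9 and 6 beside 1 and 1 in MEFs. Apoc2 and Apoc4 lie within the Apoe-Apoc1 windows and so share peaks with the set. Lpl and Abcg1 had a promoter summit in MEFs alone, and Apod, Pltp and Gpihbp1 had none in any list.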

How the data were processed

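CUT&RUN peak lists of liver, MEF and Hep3B antibody groups were analysed. According to the study's methods, the authors trimmed paired reads with Trim Galore 0.6.6, aligned them with Bowtie2 2.4.2 to mm10 or hg38 and called 1 consensus list per group over replicates with Genrich 0.6.1. The study presents the sites as found relative to IgG, but how IgG entered the calls is not given in the sources used here. The deposited score is capped by the authors' caller and was not used. The deposited signal is the area of a peak under the authors' caller. The deposited −log10 p (ranking) and −log10 q (filter) belong to the summit. No sample depth or replicate value was in the files analysed, so no error between replicates is given.

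Summits were assigned to GENCODE M21 and GENCODE 44 protein-coding genes (gene body and 20 kb, or 1 kb around a TSS) with Python 3.11.15, pandas 2.3.3 and pysam 0.24.0. The scripts were tested on simulated peaks, and 15 of 15 checks passed. All 10 genes were named, and of the other 37 genes those with a promoter summit in exactly 1 or all 3 lists. The 3 with none were named after their values were seen. Some genes that this rule names are not reported here. For peaks, the strongest at each gene and each promoter peak were to be named, and the others named were chosen after their values were seen. Up to 8 promoter sequences were shown. Genes, gene lists and motifs were chosen with earlier results of these data known, and CAAAGNNCA was added after the sequences were seen. Alternatives varied the windows, the q-value, area, number of peaks and overlap.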

Additional observations from a re-analysis of the deposited data

How the results depend on the processing

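Of 68 alternative values, 51 stayed within 1.5 times the count or, for medians, within the 95% order-statistic interval over the peaks. The other 17 moved further and 0 reversed, though a count of genes or peaks has no sign that could reverse. Some of the 51 could not move. The q-value limit and the area minimum each kept all 50159 liver peaks, and the cut to 14369 peaks kept the whole Hep3B list. The widest shift of a median was in MEFs, from 66.4% to 52.5% when peaks were ranked by area (interval 44.3% to 86.5%). Of 22 further alternatives for the motif counts, which used 200 bp or the whole peak, 11 moved, such as AAGGCG from 3 to 14 and GTTAAT from 4 to 15 peaks over the whole peak. A window of 5 kb gave 41 liver, 11 MEF and 10 Hep3B peaks, and one of 50 kb gave 38 MEF peaks. With the 14369 strongest peaks of each list, 23 liver and 9 MEF peaks were left, and 5 genes had a liver promoter summit. With the area minimum of the liver list applied to all, MEFs had 8 peaks at 5 genes and 1 promoter gene. A promoter of 500 bp also left 1 MEF gene. Counting only peaks whose nearest TSS was that of a gene of the set, an alternative added after seeing the data, gave 37 liver peaks, 6 MEF peaks at 3 genes and 6 Hep3B peaks at 3 genes. With summits within 100 bp taken as shared, 4 liver peaks matched MEFs. In each of these the construction itself admits fewer or more peaks.

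No paired analysis was possible because each file is 1 pooled list of a group, and for the same reason leaving out a replicate was not an option. The liver list starts at a higher area than the others and no list gives the depth of a sample, so absent peaks in MEFs or Hep3B are peaks not called, not sites shown to be empty.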
